A study of Mus musculus with 6 samples.

Results

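H3K27ac, the acetylated form of lysine 27 of histone H3, was examined at the 8 genes that encode the mouse PPAR, RXR and LXR nuclear receptors (Pparg, Ppard, Ppara, Rxra, Rxrb, Rxrg, Nr1h2 and Nr1h3) in alveolar macrophages (AMs). The genes were taken by name from 21668 protein-coding genes of the GENCODE vM21 annotation, and every H3K27ac peak that overlapped the gene or the 50 kb on either side of it was kept, in each library separately. This gave 78 of 36364 peaks in the Active Motif library, and 160 of 56175 and 148 of 49139 in Cell Signaling replicates 1 and 2, called CS1 and CS2 here. The AMs came from the bronchoalveolar lavage of WT C57BL/6J mice of 9 wk, with no treatment, and were labelled, fixed with formaldehyde and sorted before HT-ChIPmentation, a small-input ChIP in which the transposase Tn5 adds the sequencing adapters to chromatin on the antibody beads. The 6 samples were 1 library made with an ActiveMotif antibody, 2 made with a Cell Signalling antibody and 3 inputs, used by the authors in calling peaks and not analysed further. The title of the Active Motif sample says H3 only, and the study lists that antibody as one against H3K27ac.

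Each library is 1 peak list, and the labels do not say whether the Cell Signaling replicates came from separate mice. Antibody, library, sequencing run and depth therefore cannot be told apart, and no test was made between libraries. The lists hold no read counts, so depth is not known from them, and a missing peak means that none was called at that depth. The peaks covered 26.1, 45.8 and 59.8 Mb in the Active Motif, CS1 and CS2 lists. The fold is the enrichment over local background that the authors' peak caller wrote for each peak, and it is compared here between sites of 1 library rather than between libraries. Of 7 AM marker genes 6 had a peak within 1 kb of a transcription start site (TSS) in all 3 libraries (Krt79 lacked one in the Active Motif library), and so did 4 of 4 general macrophage markers. Of 27 markers of other blood and lung cells, 1 had a promoter peak in the Active Motif library (Xcr1), 4 in CS1 (Xcr1, S100a8, Scgb1a1 and Scgb3a2) and 3 in CS2 (Xcr1, S100a8 and Ccr2), and 22 had none in any library. In sorted bulk cells, fewer cells of a type and less of the mark per cell cannot be told apart.

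PPARs, RXRs and LXRs are ligand-activated transcription factors. PPARs and LXRs bind DNA as heterodimers with an RXR, at direct repeats of a short half-site. PPARs respond to fatty acids and their derivatives, LXRs to oxidised forms of cholesterol and RXRs to 9-cis retinoic acid and some fatty acids. AMs clear lipid-rich surfactant from the air spaces, and PPARγ is known as a factor that AMs need in order to mature. H3K27ac marks active promoters and enhancers, so the peaks show which parts of these genes carried an active mark, not how much RNA was made.

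The promoters below are shown because the receptor genes with and without a promoter peak differed in where the mark lay, and because the start sites of a single gene differed in base composition. They are RefSeq promoters of the GRCm38.p6 build, which run from 250 bases before to 50 bases after a start site, in the direction of the gene. Capitals mark each CpG, the dinucleotide that is dense in CpG-island promoters. RefSeq gave 14 such promoters for the 8 genes, and all 14 matched the genome sequence at their coordinates.
Pparg, distal start, chr6:115360894-115361193 (+): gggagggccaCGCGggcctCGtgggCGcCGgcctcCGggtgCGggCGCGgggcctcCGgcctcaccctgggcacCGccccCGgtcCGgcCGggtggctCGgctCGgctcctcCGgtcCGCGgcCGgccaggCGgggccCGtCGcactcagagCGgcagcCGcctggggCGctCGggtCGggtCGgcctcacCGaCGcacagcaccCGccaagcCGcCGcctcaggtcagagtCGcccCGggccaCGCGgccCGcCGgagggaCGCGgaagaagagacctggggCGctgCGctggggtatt
Pparg, internal start, chr6:115421816-115422115 (+): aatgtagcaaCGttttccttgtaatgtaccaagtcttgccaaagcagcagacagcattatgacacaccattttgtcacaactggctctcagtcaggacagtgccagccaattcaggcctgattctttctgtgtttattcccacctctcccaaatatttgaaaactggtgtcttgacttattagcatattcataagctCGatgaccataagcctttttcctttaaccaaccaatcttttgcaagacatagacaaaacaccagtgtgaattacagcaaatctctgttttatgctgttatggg
Ppara, chr15:85735526-85735825 (+): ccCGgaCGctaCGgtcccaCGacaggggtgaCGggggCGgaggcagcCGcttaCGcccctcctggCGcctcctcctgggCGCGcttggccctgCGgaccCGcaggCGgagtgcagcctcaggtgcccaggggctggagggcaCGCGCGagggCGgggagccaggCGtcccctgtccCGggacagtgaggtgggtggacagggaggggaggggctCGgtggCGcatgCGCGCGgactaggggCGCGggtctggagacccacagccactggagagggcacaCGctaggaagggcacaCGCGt
Rxra, first start, chr2:27676951-27677250 (+): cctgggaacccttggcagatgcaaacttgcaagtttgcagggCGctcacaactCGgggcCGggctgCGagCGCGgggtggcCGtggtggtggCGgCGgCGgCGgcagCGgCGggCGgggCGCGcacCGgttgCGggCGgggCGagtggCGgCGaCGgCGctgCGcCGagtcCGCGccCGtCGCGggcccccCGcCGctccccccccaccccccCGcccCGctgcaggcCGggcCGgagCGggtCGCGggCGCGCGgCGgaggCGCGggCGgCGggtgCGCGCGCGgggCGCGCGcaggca
Rxrg, first start, chr1:167598112-167598411 (+): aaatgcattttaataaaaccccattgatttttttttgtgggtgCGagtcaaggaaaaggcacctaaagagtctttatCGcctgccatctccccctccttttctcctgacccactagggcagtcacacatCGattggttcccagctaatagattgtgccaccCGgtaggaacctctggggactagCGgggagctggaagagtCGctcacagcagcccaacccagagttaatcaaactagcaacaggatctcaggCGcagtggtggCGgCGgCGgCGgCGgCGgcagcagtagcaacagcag

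The distal promoter of Pparg held 44 CpG at 80.3% GC, more CpG than 97.8% of 32851 RefSeq promoters, and the internal promoter held 2 CpG at 40.3% GC, more than 14.1% of them. Both lay under a peak in all 3 libraries. The Ppara promoter held 30 CpG at 74.7% GC (more than 88.3% of promoters) and lay under no peak in any library. The first promoter of Rxra was the richest of the 14, with 55 CpG at 83.0% GC, and no peak overlapped these 300 bases. Unlike at Ppara and Rxrg, peaks lay beside it, within 1 kb of the start sites in each library (folds 5.71, 13.8 and 20.1). The Rxrg promoter held 13 CpG at 53.7% GC and had no peak. Over the 14 promoters the CpG count ran over 2 to 47 in the 9 that lay under a peak in all 3 libraries and over 1 to 55 in the 5 that lay under none, so the ranges overlapped.

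Of the 8 receptor genes, 6 had a peak within 1 kb of a TSS in the Active Motif library, 6 in CS1 and 6 in CS2, and they were the same 6 genes (Pparg, Ppard, Rxra, Rxrb, Nr1h2 and Nr1h3). Ppara and Rxrg had none in any library. Over all protein-coding genes, 40.9% had such a peak in the Active Motif library, 47.8% in CS1 and 48.8% in CS2. A promoter peak in all 3 libraries was present in 6 of the 8 receptor genes, against 40.8% of all genes, and 2 of 8 had no promoter peak in any library, against 49.8% of all genes. A total of 8 genes is too few to read a difference from these shares.

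**Figure D1:**
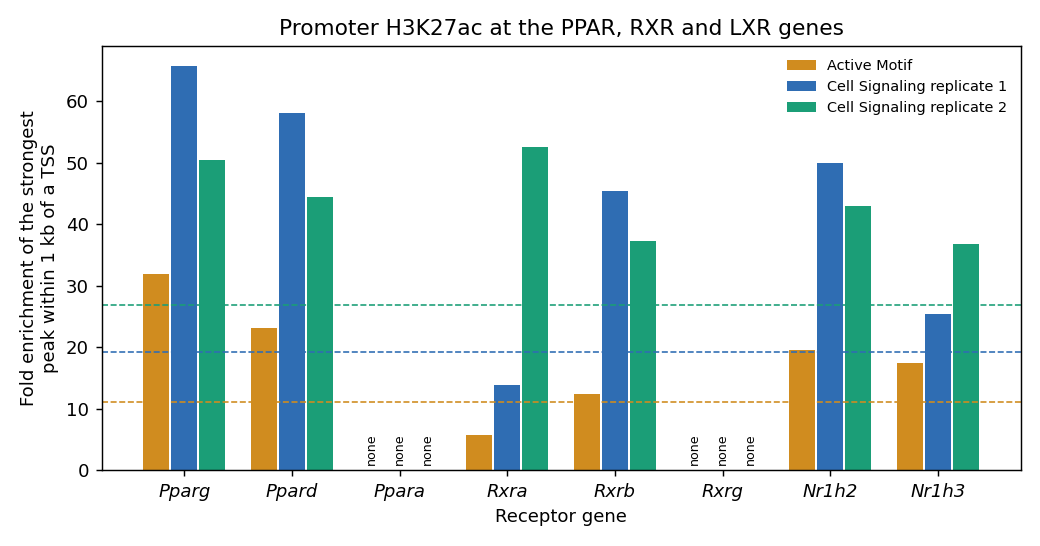
Fold enrichment of the strongest peak within 1 kb of a TSS (vertical axis) for each receptor gene (horizontal axis) in the Active Motif, CS1 and CS2 libraries (bars, labelled there as Cell Signaling replicates), with the median over all genes that had a promoter peak as dashed lines (11.1, 19.2 and 26.9). Pparg stands at 31.9, 65.7 and 50.4, Rxra at 5.71, 13.8 and 52.5, and Ppara and Rxrg have no bar because no peak was called there.

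Pparg encodes PPARγ and spans chr6:115360951-115490399 on the plus strand (129.4 kb), with no other protein-coding TSS in its window. The annotation gives it 2 distal start sites, at 115360951 and 115362292, whose transcripts encode 475 residues, and an internal one at 115422066, whose transcript encodes 505 residues and corresponds to the longer γ2 isoform known from fat cells. A single wide peak covered both distal start sites. It was 7.68 kb wide at a fold of 17.9 in the Active Motif library, 7.81 kb at 34.2 in CS1 and 9.36 kb at 35.9 in CS2. Its summit lay inside intron 1, 3.01, 3.01 and 4.01 kb past the first TSS in these libraries, not at the start sites themselves.

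The strongest peak of the Pparg window covered the internal start site in all 3 libraries. It had a fold of 31.9 over 5.59 kb in the Active Motif library, 65.7 over 7.15 kb in CS1 and 50.4 over 16.24 kb in CS2. Its summit lay 0.44, 0.42 and 0.31 kb downstream of that TSS. The fold at the internal start was above that at the distal starts in 3 of 3 libraries. Among the genes with a promoter peak in the same library, the internal peak of Pparg stood at percentile 97.1 in the Active Motif library, 98.6 in CS1 and 96.2 in CS2. The mark over this start site is not a measure of the γ2 transcript, since the same bases lie in intron 2 of transcripts from the distal sites.

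Pparg also carried peaks between and beyond its start sites. The window held 32 Active Motif peaks, 63 CS1 peaks and 68 CS2 peaks, of which 23, 50 and 54 were in the promoters or the gene body. They covered 18.4% of the gene in the Active Motif library, 31.4% in CS1 and 50.5% in CS2. Among the 4978 genes of at least 50 kb this placed Pparg at rank 73, 58 and 29 for the share of the gene covered. Merging the peaks of the 2 Cell Signaling replicates into stretches that held a peak of each left 23 shared regions in the window. Of these, 12 (52.2%) also overlapped an Active Motif peak, against 61.5% of all 29277 shared regions.

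By the summit in CS1, of the 15 shared regions in Pparg 3 were in intron 1, 3 in intron 2, 3 in intron 5, 1 in exon 6, 2 in intron 6 and 3 in intron 7 of transcript Pparg-202. The widest ran over 16.28 kb from 115418839 to 115435120 and held the internal promoter together with a further intronic peak 71.4 to 71.5 kb from the first TSS, which had a fold of 20.9 in the Active Motif library and 25.8 in CS1. In CS2 the 2 were a single peak. The region in intron 1 at 14.2 kb reached a fold of 13.6, 27.6 and 21.2 in the 3 libraries. The region in intron 7 at 119.6 kb reached 6.49, 29.2 and 28.7.

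Past the 3′ end of Pparg, 2 regions 151.0 and 158.2 kb from its first TSS were the strongest in the Active Motif library and in CS1. The site at 115509944-115513916 had folds of 11.7, 34.6 and 28.2, and the site at 115517599-115524251 had folds of 11.8, 28.1 and 13.0. In CS2 the regions at 144.6 kb (fold 18.4, and 12.3 in CS1) and at 178.2 kb (13.3, and 7.3 in CS1) stood above that at 158.2 kb. Neither overlapped an Active Motif peak. None of these regions had Pparg as the nearest gene, so proximity does not assign them to it. Upstream of the gene only 1 shared region was found, 17.0 kb before the first TSS, with folds of 5.97, 6.53 and 13.5.

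**Figure D2:**
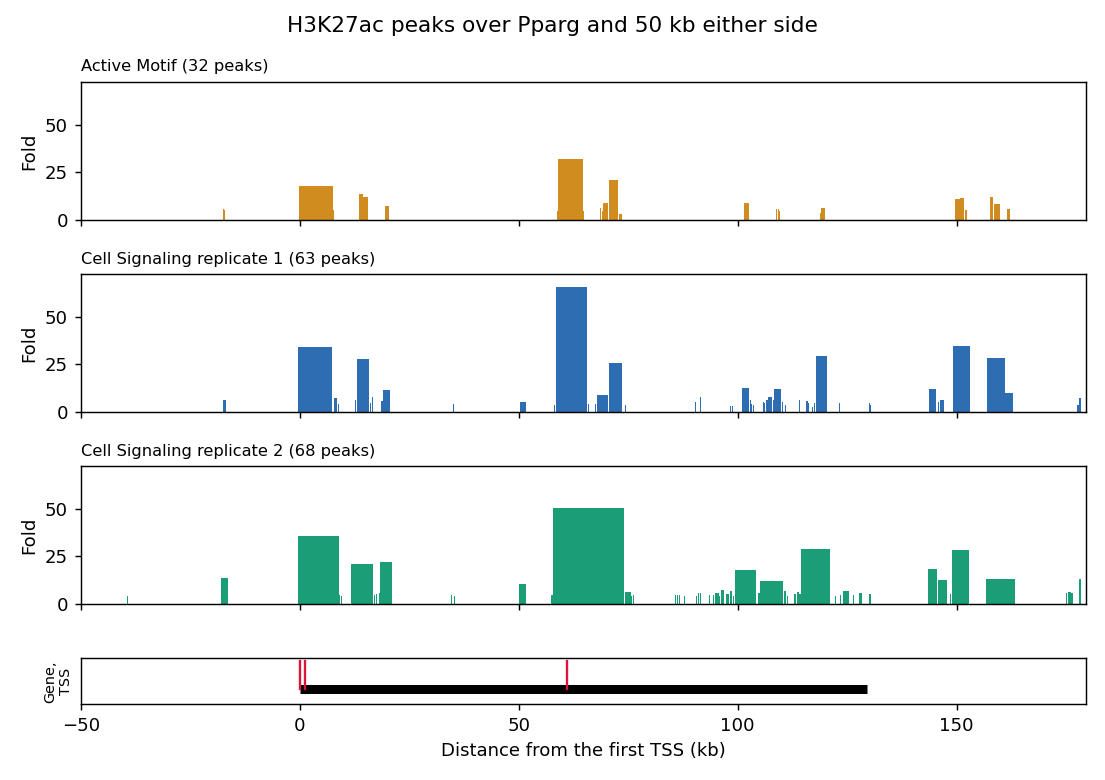
Peaks of the 3 libraries (1 panel each) over Pparg and 50 kb either side, with distance from the first TSS in kb on the horizontal axis and the authors' fold on the vertical axis. Each bar spans 1 peak, the black bar is the gene and the red ticks are its 3 TSS. The tallest bar lies over the internal TSS in every panel (31.9, 65.7 and 50.4).

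Ppard encodes PPARδ, the most broadly expressed PPAR, and spans chr17:28232700-28301474 on the plus strand (68.78 kb). Its 3 start sites lie close together. The promoter peak was narrow beside those of Pparg, at 1.25 kb and a fold of 23.2 in the Active Motif library, 2.41 kb and 58.0 in CS1, and 2.04 kb and 44.4 in CS2. These folds stood at percentiles 89.3, 96.2 and 88.8 of all promoter peaks. The gene body held 6, 15 and 9 further peaks, and peaks covered 4.07% of the gene in the Active Motif library, 16.2% in CS1 and 18.5% in CS2. Of the 7 shared regions in the gene body the strongest were at 27.2 kb in intron 2, with folds of 5.23, 18.5 and 12.9, and at 61.9 kb in intron 3, with folds of 6.31, 14.2 and 20.5. The site in intron 3 was nearer to Fance, a Fanconi anaemia repair gene, than to Ppard. The strongest upstream region without a TSS was 14.8 kb before Ppard (folds 19.4, 50.4 and 41.0), nearest to Def6, a guanine nucleotide exchange factor of immune cells.

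Ppara encodes PPARα, which drives fatty acid oxidation in liver, and spans chr15:85734983-85802819 on the plus strand (67.84 kb). No peak overlapped its promoter or its body in any library. The whole window held 1 Active Motif peak, 4 CS1 peaks and 2 CS2 peaks. The only peak present in all 3 was the promoter peak of Cdpf1, with a fold of 8.95, 17.7 and 17.8, and the promoter of Ttc38 had 1 peak in CS1 (fold 4.68) and 1 in CS2 (10.3). The 2 peaks nearest to Ppara itself were found in CS1 alone, at folds of 3.84 and 3.54.

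Among the PPAR genes peaks covered the most bases at Pparg and fewer at Ppard, and none was called in the promoter or body of Ppara. Peaks in the window covered 29.6 kb at Pparg, 8.87 kb at Ppard and 1.24 kb at Ppara in the Active Motif library. The same values were 55.0, 20.1 and 1.81 kb in CS1, and 84.6, 23.1 and 2.0 kb in CS2. The order of the 3 genes was the same in each library.

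Rxra encodes RXRα and spans chr2:27676440-27762957 on the plus strand (86.52 kb), with no other protein-coding TSS in its window. Transcripts from its first start sites, at 27677201 and 27677262, encode 467 residues, and those from internal sites at 27709292 and 27710583 encode 439 residues. At the first start sites the mark was weak. The strongest peak within 1 kb of them had a fold of 5.71 over 0.65 kb in the Active Motif library, 13.8 over 3.15 kb in CS1 and 20.1 over 4.03 kb in CS2. Only the CS2 peak overlapped a start site, and the summits lay 1.06, 1.04 and 0.72 kb downstream.

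The strongest peak of Rxra, and in CS1 of all 8 windows, lay deep in intron 1. It had a fold of 30.3 over 4.05 kb in the Active Motif library, 74.6 over 6.59 kb in CS1 and 52.5 over 8.47 kb in CS2. Its summit was 37.4, 37.4 and 37.8 kb from the first TSS, which is 3.97 kb downstream of the internal start at 27710583 in CS1 and 4.44 kb in CS2. The peak reached that internal start in CS2 alone. For this reason the strongest promoter peak of Rxra was 5.71 in the Active Motif library, 13.8 in CS1 and 52.5 in CS2, at percentiles 13.3, 34.7 and 97.9 of promoter peaks. With the first start sites alone these folds were 5.71, 13.8 and 20.1. The sequence at the CS1 summit is shown because it was the most enriched site of the 8 windows in CS1. In the Active Motif library the internal start of Pparg stood above it (31.9, against 30.3). The 200 bases held 1 CpG (in capitals) and a GC content of 50.5%, unlike the first promoter of the gene printed above, and none of the 9 motifs searched.
Rxra, intron 1 summit, chr2:27714453-27714652 (+): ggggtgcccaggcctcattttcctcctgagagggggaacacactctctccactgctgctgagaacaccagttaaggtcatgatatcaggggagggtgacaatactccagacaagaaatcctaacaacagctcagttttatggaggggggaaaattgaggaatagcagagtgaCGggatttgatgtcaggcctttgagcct

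Rxra also had many weaker sites. Its window held 18 Active Motif, 41 CS1 and 35 CS2 peaks, and 18, 39 and 34 of them were in the gene or its promoters. Peaks covered 14.0% of the gene in the Active Motif library, 35.1% in CS1 and 50.7% in CS2, which was rank 121, 44 and 26 among the 4978 genes of at least 50 kb. Of 17 shared Cell Signaling regions 6 overlapped an Active Motif peak (35.3%, against 61.5% of all 29277 shared regions). Intron 1 held 10 of the shared regions, intron 4 held 4, and intron 2, exon 10 and the downstream flank held 1 each. After the site at 37.4 kb, the shared regions with the highest mean fold over CS1 and CS2 were at 16.7 kb (folds 8.06, 18.7 and 24.4), at 50.9 kb (8.90, 18.1 and 22.5) and at 63.2 kb (6.04, 19.2 and 16.1). No peak was called in the 50 kb upstream of the gene in any library, and the downstream flank held 0, 2 and 1.

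**Figure D3:**
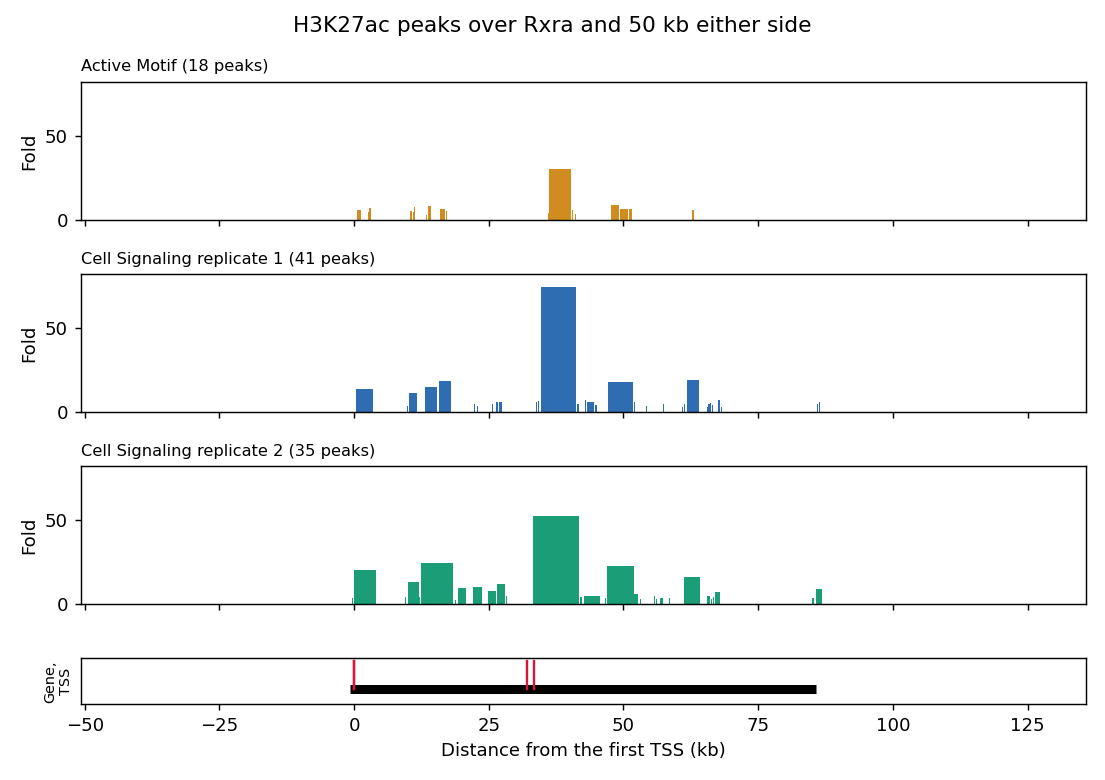
Peaks of the 3 libraries over Rxra and 50 kb either side, drawn as for Pparg, with distance from the first TSS in kb against the authors' fold. The tallest bar (30.3, 74.6 and 52.5) lies in intron 1 near 37.4 kb, past the internal TSS, and the tallest within 1 kb of the first TSS reach 5.71, 13.8 and 20.1.

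Rxrb encodes RXRβ and is a short gene in the gene-dense major histocompatibility region, at chr17:34031812-34038399 on the plus strand (6.59 kb). A single peak covered its 4 start sites, at 2.43 kb and a fold of 12.4 in the Active Motif library, 2.86 kb and 45.4 in CS1, and 2.97 kb and 37.3 in CS2. These were percentiles 57.3, 89.1 and 75.2 of promoter peaks. The same peak covered the promoter of the zinc transporter gene Slc39a7, which starts 0.1 kb upstream on the opposite strand, so its mark cannot be divided between the 2 genes. Beyond it the gene body held no peak. The other peaks of the window, 5, 15 and 11 in number, lay in the flanks, and all but 1 of the 11 shared regions were nearest to another gene. They included the promoter of H2-K1, an MHC class I gene, with folds of 20.9, 33.1 and 47.6.

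Rxrg encodes RXRγ, known from brain and muscle, and spans chr1:167598384-167639623 on the plus strand (41.24 kb). No peak overlapped its promoters or its body in any library. The Active Motif library had no peak in the whole window, CS1 had 2 and CS2 had 1. All 3 belonged to a single shared region 44.4 kb upstream, with a fold of 5.38 in CS1 and 6.89 in CS2. The other protein-coding gene with a TSS in the window, Lmx1a, had no promoter peak either.

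Nr1h2 encodes LXRβ and spans chr7:44549616-44553951 on the minus strand (4.34 kb). Its promoter peak had a fold of 19.6 over 1.18 kb in the Active Motif library, 50 over 1.31 kb in CS1 and 43.0 over 1.65 kb in CS2, at percentiles 81.6, 92.2 and 86.5 of promoter peaks. It was the only Active Motif peak of the window. CS1 and CS2 had 4 further peaks each, none in the gene body. The shared ones were nearest to Pold1, which encodes the catalytic subunit of DNA polymerase delta, and to Napsa, the napsin A gene, with folds of at most 10.2. The mark at Nr1h2 was a narrow promoter peak with little around it.

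Nr1h3 encodes LXRα, the LXR known from macrophages and liver, and spans chr2:91184061-91202834 on the minus strand (18.77 kb). The annotated 5′ end at 91202834 comes from a transcript that was not used here, and the transcripts used start between 91194885 and 91195151. The peak over these start sites had a fold of 17.5 over 1.63 kb in the Active Motif library, 25.4 over 3.52 kb in CS1 and 36.8 over 4.28 kb in CS2, at percentiles 76.2, 62.7 and 74.0. Its summit lay 0.25 to 0.36 kb downstream of the first of them. The flanking peak 11.3 kb upstream was higher than the promoter peak in CS1 and in CS2, with folds of 30.4 and 42.5, and lower in the Active Motif library, with a fold of 10.5. It lies 3.05 kb from the TSS of Acp2, the lysosomal acid phosphatase gene, whose own promoter peak overlaps the annotated 5′ end of Nr1h3 (folds 11.1, 24.2 and 34.8).

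Both LXR genes had a promoter peak in every library, and they differed in what lay around it. Peaks in the window covered 1.18 kb at Nr1h2 and 7.11 kb at Nr1h3 in the Active Motif library, 2.27 and 10.8 kb in CS1, and 3.72 and 13.7 kb in CS2. In each library the promoter fold was higher at Nr1h2 and the covered length was greater at Nr1h3. Of the 6 shared regions in the Nr1h3 window 1 was nearest to Nr1h3, as was 1 of 4 at Nr1h2.

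Ordered by promoter fold, the Active Motif library gave Pparg (31.9), Ppard (23.2), Nr1h2 (19.6), Nr1h3 (17.5), Rxrb (12.4) and Rxra (5.71). CS1 gave Pparg (65.7), Ppard (58.0), Nr1h2 (50), Rxrb (45.4), Nr1h3 (25.4) and Rxra (13.8). CS2 gave Rxra (52.5), Pparg (50.4), Ppard (44.4), Nr1h2 (43.0), Rxrb (37.3) and Nr1h3 (36.8). Pparg, Ppard, Nr1h2 and Rxrb kept this order among themselves in each list, while the places of Nr1h3 and Rxra changed. The place of Pparg rests on its internal start. At its distal starts (17.9, 34.2 and 35.9) Pparg was below Ppard and Nr1h2 in each list. There it was also below Rxrb in CS1 and CS2, and above it in the Active Motif library. Some gaps were small, as between Ppard and Nr1h2 in CS2 (44.4 and 43.0), and with 1 value per gene and library they were not tested.

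**Figure D4:**
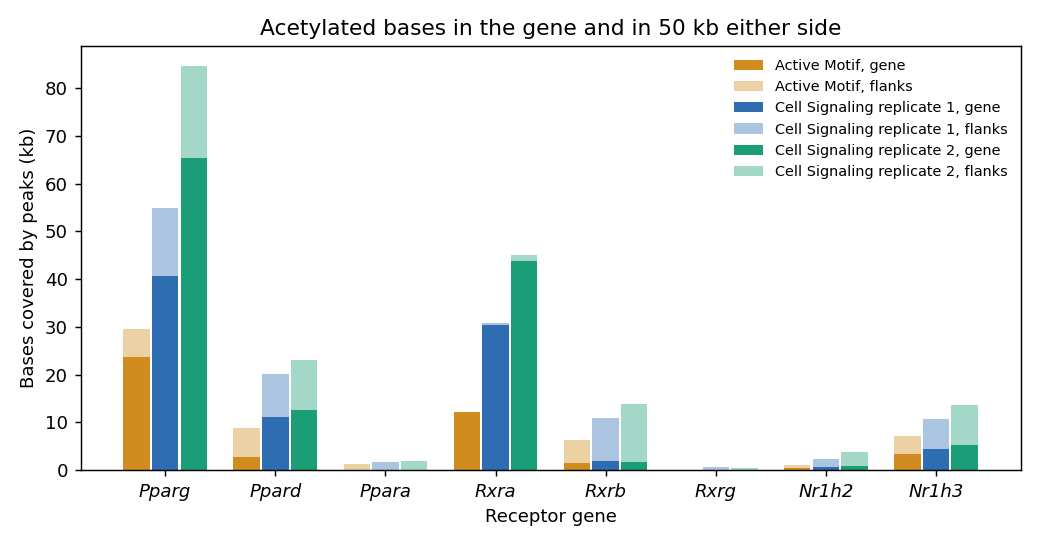
Bases covered by peaks (kb, vertical axis) in the gene (dark) and in the 50 kb on either side (light) for each receptor gene and library. Pparg and Rxra are the tallest in every library, with 29.6, 55.0 and 84.6 kb at Pparg and 12.1, 30.8 and 45 kb at Rxra, and nearly all of the Rxra bases lie in the gene.

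Pparg and Rxra together held 50 of 78 window peaks in the Active Motif library (64.1%), 104 of 160 in CS1 (65.0%) and 103 of 148 in CS2 (69.6%). Their genes are the longest of the 8, so a window of fixed length was also used, the 50 kb on either side of the annotated 5′ end. Within it Pparg had 11.2, 15.2 and 19.9 kb of acetylated bases in the Active Motif, CS1 and CS2 libraries, at percentiles 95.8, 94.2 and 94.3 of all 21668 genes. Rxra had 9.77, 23.0 and 33.8 kb, at percentiles 94.3, 98.1 and 99.0. Within this window Pparg was above Rxra in the Active Motif library and below it in the Cell Signaling libraries. The window ends before the internal start of Pparg and its strongest peak (summit 61.4 to 61.5 kb from the first TSS). It takes in the strongest peak of Rxra (37.4 to 37.8 kb), so it does not treat the strongest sites of these genes alike. Ppard (6.78, 14.3 and 16.0 kb), Rxrb (6.33, 10.9 and 13.8 kb) and Nr1h3 (7.11, 10.8 and 13.7 kb) were close to each other, between percentiles 88.0 and 93.3. Nr1h2 had 1.18, 2.27 and 3.72 kb, near the median gene (1.02, 2.03 and 2.65 kb), and Ppara and Rxrg had at most 0.647 kb. Part of the bases at Rxrb and Nr1h3 belong to the promoters of neighbours, as above. The median of the 8 genes was 6.55, 10.8 and 13.8 kb.

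**Figure D5:**
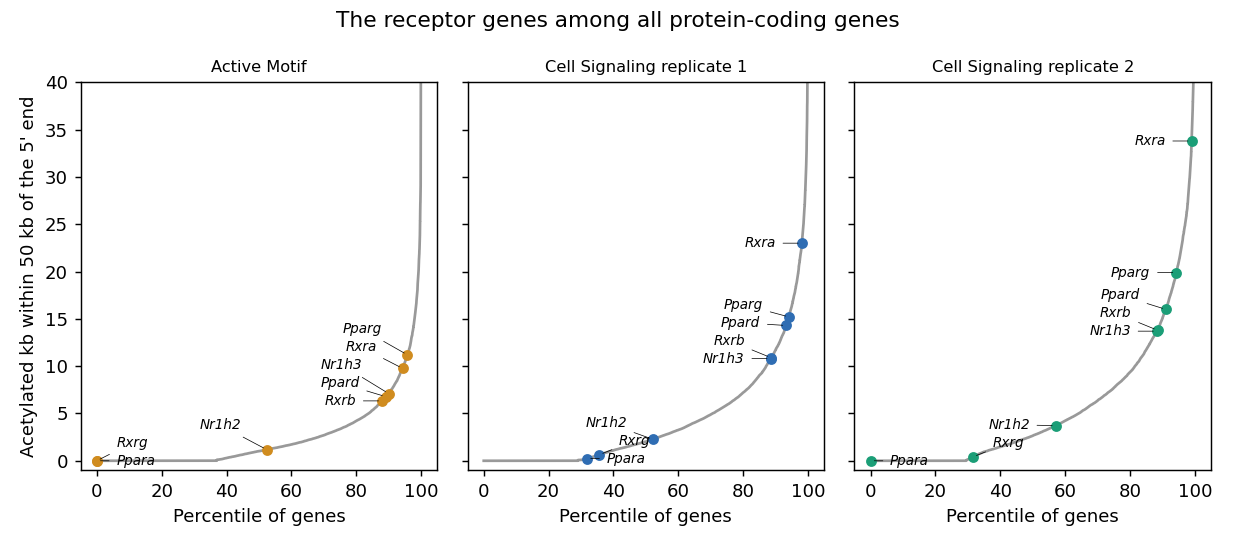
Acetylated kb within 50 kb of the annotated 5′ end (vertical axis) against the percentile of the gene among all 21668 protein-coding genes (horizontal axis), 1 panel per library, with the curve of all genes in grey and the receptor genes as points (the axis ends at 40 kb). Rxra and Pparg are the highest of the receptor genes in every panel, Nr1h2 is near the middle and Ppara and Rxrg are the lowest. The window of Pparg does not reach its internal start.

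The genes most like each receptor gene in acetylated bases within 50 kb were found over the 3 libraries, by Euclidean distance on the log2(kb + 1) scale, among genes on another chromosome or over 200 kb away. This likeness rests on 3 values per gene and says nothing of function. For Pparg these values leave out its internal start and strongest peak. For Pparg they included Afap1 (11.4, 15.6 and 20.2 kb, distance 0.047) and Ano6. For Ppard they were Vmo1, Rnf149 and Cisd1, for Rxrb Csnk1e, Abcb6 and Nt5c, for Nr1h2 E2f5, Parp11 and Zmym4, and for Nr1h3 Maml3, 6030445D17Rik and Kat5. Rxra had the least close neighbours, Fxyd5 (9.80, 22.2 and 30.9 kb, distance 0.134), Zfp710 and Lyl1. Rxrg was closest to Nek2, Shroom4 and Spink2, which like it had no Active Motif peak within 50 kb of their 5′ ends. Ppara had no shared region nearest to it and was left out.

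The Active Motif sites of the windows recurred in both Cell Signaling libraries, which held further sites. All 78 Active Motif peaks in the windows had a partner in CS1 and in CS2 (100%, Wilson 95% interval 95.3 to 100%), against 96.6% and 99.5% of all Active Motif peaks. Of the CS1 peaks in the windows, 88.1% (82.2 to 92.3%) had a partner in CS2, against 82.1% genome-wide, and of the CS2 peaks 52.7% (44.7 to 60.6%) had one in CS1, against 61.9%. An Active Motif peak was present at 27.5% of CS1 peaks and 27% of CS2 peaks of the windows, against 38.3% and 37.6% genome-wide. Peaks of 1 window are neighbours and often pieces of the same stretch, and the intervals cover counting error only.

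Peaks without a partner were weak. The 70 CS2 peaks of the windows with no partner in either other library had a median fold of 4.32 and a median width of 174 bp, whereas the 40 with a partner in both had 22.4 and 2707 bp. In CS1 the 19 without a partner had a median fold of 4.23, and the 44 with both had 18.1. Over the 76 shared Cell Signaling regions the folds of the replicates went together (Spearman's rho 0.871 across sites, which share windows and libraries). The fold was higher in CS2 at 48 of them. The median fold over all peaks was also higher in CS2 (7.19, against 5.38 in CS1), so this is not read as particular to these sites. Of the 76, 40 also held an Active Motif peak (52.6%, against 61.5% of all shared regions). Those 40 had a median fold over the 2 replicates of 20.5, and the rest 6.62.

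The peaks were searched for 9 short motifs on both strands, within 200 bases centred on each CS1 summit, in the 160 window peaks and in all 56175 peaks. The receptors' own response elements were taken as 2 copies of the AGGTCA half-site with any base at position 4, spaced by 1 base (DR1, bound by PPAR and RXR) or by 4 bases (DR4, bound by LXR and RXR). Neither occurred at any of the 160 window summits, and they were rare in all peaks (0.447% and 0.212%). With shares this low, none at 160 summits cannot be told from the share over all peaks. The search was limited to the 200 bases at each summit, so elements elsewhere in the wider peaks were not looked for. The letters of the myeloid factor PU.1 (GAGGAAGT) were at 3.75% of window summits, against 3.16% of all summits, and those of C/EBP (TTGCNNAA) at 8.75%, against 9.51%. The AP-1 letters (TGANTCA) were at 8.75%, against 7.38%, the E-box (CACGTG) at 4.38%, against 3.36%, and the STAT letters (TTCNNNGAA) at 6.25%, against 6.74%. The RUNX letters (TGTGGT) were at 20%, against 15.5%, and the RBPJ letters (TGGGAA) at 22.5%, against 18.5% of all summits. RBPJ and STAT letters can share their GAA, and an E-box can run into RUNX letters.

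By gene, RBPJ letters were at 15 of 63 Pparg summits, 11 of 41 Rxra summits and 5 of 21 Ppard summits, and RUNX letters at 6, 12 and 8 of them. RBPJ is the DNA-binding factor of the Notch pathway and STAT5 that of GM-CSF, signals that the study examined in AMs. STAT letters were at 5 Pparg and 3 Rxra summits. A match is a description of letters and shows no binding. The 3 windows below are the strongest CS1 peaks with PU.1, AP-1 and C/EBP letters, shown so that the matches can be seen in place, with every match to the 9 motifs in capitals.
Pparg, 3′ flank at 151.0 kb, chr6:115511851-115512050 (+), PU.1 on the reverse strand: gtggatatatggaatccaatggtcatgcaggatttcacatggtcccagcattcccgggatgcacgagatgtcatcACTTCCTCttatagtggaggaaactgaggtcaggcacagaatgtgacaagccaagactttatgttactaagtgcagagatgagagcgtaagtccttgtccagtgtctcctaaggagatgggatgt
Pparg, intron 7 at 119.6 kb, chr6:115480407-115480606 (+), AP-1: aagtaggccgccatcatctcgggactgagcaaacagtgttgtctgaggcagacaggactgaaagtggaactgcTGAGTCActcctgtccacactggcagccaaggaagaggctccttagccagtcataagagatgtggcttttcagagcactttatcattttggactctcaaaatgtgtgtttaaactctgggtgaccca
Rxra, intron 1 at 50.9 kb, chr2:27727962-27728161 (+), RBPJ and then C/EBP, both on the reverse strand: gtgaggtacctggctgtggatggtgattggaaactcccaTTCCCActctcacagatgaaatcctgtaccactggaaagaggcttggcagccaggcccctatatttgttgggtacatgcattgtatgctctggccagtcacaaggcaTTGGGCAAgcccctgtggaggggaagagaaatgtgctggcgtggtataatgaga

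The genes that act with the receptors were counted in 5 lists, whose counts stand beside 40.8% of all genes with a promoter peak in all 3 libraries and 49.8% with none. Of 11 further partners of RXR, 4 had a promoter peak in all 3 libraries (Rara, Rarg, Vdr and Nr4a1) and 4 in none (Nr1h4, which encodes the bile acid receptor, the xenobiotic receptor genes Nr1i2 and Nr1i3, and the thyroid hormone receptor gene Thrb). Nr4a2, Rarb and Thra had one in the Cell Signaling libraries alone. The strongest was the retinoic acid receptor gene Rara, with folds of 23.2, 54.6 and 48.0. Of 16 coregulators 15 had a promoter peak in all 3 libraries, among them the corepressor Ncor1 (22.6, 43.4 and 41.0) and the acetyltransferase Ep300 (16.2, 36.5 and 37.0), and Ppargc1a, the coactivator of oxidative tissues, had one in CS1 alone (4.61).

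Of 20 genes that make, bind or release ligands, 9 had a promoter peak in all 3 libraries and 8 in none. Lipa, the lysosomal lipase that frees fatty acids and cholesterol, had folds of 27.3, 58.8 and 50.4, and the lipoprotein lipase gene Lpl 14.5, 30.4 and 41.9. The 8 without a peak included the retinoid genes Aldh1a2, Crabp1, Crabp2 and Stra6, the prostaglandin synthesis genes Ptgs1, Ptgs2 and Ptgds, and Alox15. Other genes of these kinds had one in all 3 libraries. They were the retinoid gene Rdh10 (10.7, 21.1 and 28.4), the prostaglandin synthesis gene Hpgds (4.41, 6.15 and 7.81) and Alox5 (10.5, 25.0 and 32.0). The retinoid gene Aldh1a1 had one in CS1 alone (4.23).

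Of 18 known PPAR targets 12 had a promoter peak in all 3 libraries, against 40.8% of all genes, and 6 in none, against 49.8%. The fatty acid transporter gene Cd36 had folds of 43.0, 73.4 and 51.7 and the lipid droplet coat gene Plin2 34.3, 69.6 and 55.9. Those without included Adipoq and Lep, known from fat, and Fgf21, Cyp4a10 and Cyp4a14, known from liver. Of 17 known LXR targets 12 had one in all 3 libraries and 5 in none. The cholesterol exporter gene Abcg1 had folds of 33.0, 64.2 and 34.1 and Mylip, which degrades the LDL receptor, 27.3, 41.5 and 46.3. The 5 without were Abcg5, Abcg8, Cyp7a1, Apoe and Scd1. Counted once each, the genes of the 5 lists came to 82, of which 52 had a promoter peak in all 3 libraries, against 40.8% of all genes, and 23 in none, against 49.8%.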

How the data were processed

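The members, the gene lists and the motifs were chosen with earlier results of these data known, so their counts are descriptions. The study's methods name Cutadapt for trimming, Bowtie2 for alignment (mm10), Picard for duplicates and MACS3 for peaks, which the authors called against input at a q-value of 0.05. The submitters' processing notes also name CASAVA, SAMtools and bcl2fastq, with version 2.20.0.422 given for CS1 and CS2, the Cell Signaling replicates. Sonication was done on more than 1 instrument, and the sources used here do not say which library used which. The authors deposited 1 peak list per library. Each deposited list gives, per peak, the fold enrichment (a ratio to local background, made by the authors with MACS3), the −log10 of the p-value, the −log10 of the q-value, a score derived from the q-value and a summit. The deposited −log10 q was 1.31 or more, and the score was not analysed. Depth can change how many weak sites pass and how they are split or joined.

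Positions are counted from 1 on mm10. All peak ends lay inside the chromosomes of GRCm38.p6, the same assembly, from which sequence was read with pysam 0.24.0. TSS were the starts of protein-coding transcripts in the GENCODE vM21 basic annotation, on the 19 autosomes and X, for 21668 genes. A gene with many TSS has more room for a promoter peak. A promoter peak overlapped 1 kb either side of any TSS by 1 bp, a shared region was a merged stretch with a peak of both Cell Signaling replicates, and percentiles are shares of genes with a lower value. Overlap functions were tested on simulated peaks in Python 3.11.15. No statistical test was run, because the design gives 1 peak list per antibody or replicate and genes are not replicates. Named genes are the 8 receptor genes, the exceptions in each list, the 3 most alike genes and genes with a TSS in a window. A few genes that this rule names are not reported here. Other list genes given with values were chosen after their values were seen. Alternatives covered the promoter window, the TSS set, the flanks, the q-value, the number of peaks, the overlap and each Cell Signaling replicate.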

Additional observations from a re-analysis of the deposited data

How the results depend on the processing

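The count of 6 receptor genes with a promoter peak in all 3 libraries was also 6 with windows of 500 bp and 2 kb, with a −log10 q of at least 5, with the 36364 strongest peaks of each library, and without either Cell Signaling replicate (6 to 6). It was 5 with the annotated 5′ end alone, where Rxra kept a peak in replicate 2 only. The annotated 5′ end of Rxra (27676440) lies upstream of its first TSS used here (27677201). The Active Motif and replicate 1 peaks near that TSS fell outside the window of the 5′ end. The peak counted at the annotated 5′ end of Nr1h3 was the promoter peak of its neighbour Acp2 (folds 11.1, 24.2 and 34.8). The count was 4 when 50% of the peak had to lie in the promoter window, which the wide peaks of Pparg and Nr1h3 did not meet. With the 5′ end alone the strongest promoter peak of Pparg had a fold of 17.9, 34.2 and 35.9, that of the distal starts. This placed Pparg below Ppard and Nr1h2 in each library. Window peaks numbered 98 in replicate 1 at a −log10 q of at least 5 and 98 at equal list size, and in replicate 2 they numbered 86 and 96, and 97 when only those nearest to the receptor gene were counted. Acetylated bases in the Active Motif library were 102 kb with flanks of 100 kb. Shared regions numbered 46 when 50% of both peaks had to overlap, and 40 to 44 when the Active Motif library took the place of a Cell Signaling replicate (40 without replicate 1 and 44 without replicate 2). The other alternatives for these counts stayed within 1.5 times. No paired analysis was possible because the results come from no test. Read depth is not in the peak lists, so its effect on the weak peaks was not tested.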

Other observations

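Other genes in the windows carried promoter peaks of their own. In the Ppard window these were Def6 (folds 14.5, 54.4 and 42.8 in the Active Motif, CS1 and CS2 libraries), the ribosomal protein gene Rpl10a (4.66, 18.1 and 18.2) and Fance (4.27, 9.99 and 17.3), and Tead3 had none. In the Rxrb window they were the Polycomb gene Ring1 (12.5, 25.4 and 28.5), H2-Ke6 (9.21, 10.8 and 19.0) and H2-K1, and the collagen gene Col11a2 had none. In the Nr1h3 window they were the DNA repair gene Ddb2 (11.5, 12.9 and 24.5) and Madd (6.87, 17.3 and 26.2). In the Nr1h2 window Pold1 (5.77 and 10.2) and Napsa (4.61 and 8.91) had a promoter peak in the Cell Signaling replicates alone, and Spib and Mybpc2 had none in any library. Spib encodes an Ets factor known from B cells, and the B cell markers Cd79a and Pax5 also had no promoter peak.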
